A study of Mus musculus with 24 samples.

Results

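Kidney RNA of adult Hap-II mice fed a western diet was compared with kidney RNA of adult C57 mice. The 8 libraries, 4 per group, were all those that the sample labels place in these groups, out of 24 libraries in the series. The series follows kidney transcripts in mice, called hypertensive in its title, that overexpress human angiotensin receptor type 1, and it holds 6 groups of 4 animals. Hap-I and Hap-II are lines named for one or the other haplotype of the human receptor gene, on a strain given as C57/BL6. The labels of the C57 group name neither haplotype. All Hap-II libraries given here are from adults on the western diet and all C57 libraries from adults whose labels name no diet, so line, diet and the letter that starts the sample titles (C for Hap-II, S for C57) change together and cannot be told apart. No label states what the C57 mice ate, and that it was no western diet is an inference from this silence. Nothing in the sources used here gives sex, exact age, length of feeding, extraction batch, the promoter of the transgene or the number of founder animals. Human receptor RNA was not analysed here. Each library stands for 1 animal, as the design text states.

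Angiotensin II is made when renin, released by granular cells of the afferent arteriole, cuts angiotensinogen and angiotensin-converting enzyme trims the product. Through the type 1 receptor it constricts vessels, raises sodium uptake along the nephron and, given for long, is known to drive matrix deposition in the kidney. A western diet is rich in fat, sugar and cholesterol. Cells that receive sterol are known to lower the genes of cholesterol synthesis and uptake, while fatty acid synthesis follows insulin, carbohydrate supply and the factors SREBP-1c and ChREBP.

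All 8 libraries held nephron transcripts. The defining markers Umod (thick ascending limb), Slc34a1 (proximal tubule), Nphs1 (podocyte) and Kap (proximal tubule) were present in each. The authors' unit is TPM, transcript abundance scaled to a fixed total, which keeps no read total, so depth is unknown and a value of 0 is given as listed at 0. Genes above 0 numbered 16720 ± 626 in Hap-II and 18210 ± 191 in C57 (SD, n = 4), with no overlap. TPM were rescaled by the median of gene ratios over the 16 kidney libraries, which include 4 of Hap-I adults and 4 of aged Hap-I mice on the western diet, and tested as log2(rescaled TPM + 1). On this scale the change of weakly expressed genes is understated. Levels are given below as rescaled TPM and differences as log2 changes, Hap-II minus C57, with the standard error and the Benjamini-Hochberg adjusted p of limma over 12923 genes. Libraries differed within groups in ways the labels do not explain. The 4 Y-linked genes measured, such as Eif2s3y, summed to 55.5 and 48.3 TPM in Hap-II libraries 3 and 4, to 0.378 and 1.01 TPM in Hap-II libraries 1 and 2, and to at most 0.615 TPM in C57. Counts are therefore also given without Hap-II libraries 3 and 4, a setting in which 2 libraries stand for the group. In bulk tissue, fewer cells of a type and less RNA per cell cannot be told apart.

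Of 12923 genes, 1618 were higher (12.5%) and 1305 lower (10.1%) in Hap-II on the western diet, at an adjusted p under 0.05. By at least 2-fold on the log2 scale, 1061 of these 2923 genes differed. In 2215 of the 2923 the 4 and 4 libraries did not overlap. Over all 12923 genes, called or not, this held for 3269, so genes that were not called also showed it. The median change of all genes was -0.01. Without rescaling it was -0.59, with 353 genes higher (2.73%) and 4774 lower (36.9%), and with mitochondrially encoded genes removed and library sums made equal it was -0.51, with 471 higher and 3148 lower. A change below is therefore relative to the typical gene. List counts below are to be read beside the shares over all genes, 12.5% higher and 10.1% lower. Without Hap-II libraries 3 and 4, 63 genes were higher (0.488%) and 84 lower (0.65%). All 2923 genes kept their sign, but they had been called with Hap-II libraries 1 and 2 included, so this is no separate support. Leaving out Hap-II library 3 alone left 972 called genes, and leaving out C57 library 2, 3 or 4 left 1647, 1495 or 1369.

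Genes of the extracellular matrix were lower in Hap-II almost throughout. Of 38 measured members of a matrix list, 28 were lower and 0 higher, with a median log2 change of -1.02. The lowest relative to C57 was Fn1 (ENSMUSG00000026193, GRCm38 chromosome 1, 71585520 to 71653200), the gene of fibronectin, a glycoprotein that links cells to collagen. Its levels were 2.08, 1.99, 2.18 and 2.61 TPM in Hap-II libraries 1 to 4 and 13.5, 20.6, 22.3 and 9.51 TPM in C57 libraries 1 to 4. The groups were far apart, and the spread within Hap-II was small. The log2 change was -2.37 ± 0.26 (SE, adjusted p = 0.000183), and it stayed past the threshold in every setting tried.

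Fibrillar collagens moved in the same direction. Col3a1, the type III collagen of vessels and interstitium (chromosome 1, 45311538 to 45349706), stood at 5.08, 3.46, 3.99 and 5.33 TPM in Hap-II against 26.9, 24.6, 22.8 and 9.31 TPM in C57, a log2 change of -1.92 ± 0.40 (adjusted p = 0.00668). C57 library 4 was the lowest of its group but still above all Hap-II libraries. Type I collagen showed the same separation, with log2 changes of -1.28 for Col1a1 (adjusted p = 0.00371) and -1.61 for Col1a2 (adjusted p = 0.000891). Col6a3, a chain of the beaded filaments of type VI collagen, ranged from 1.26 to 3.04 TPM in Hap-II and from 6.76 to 11.9 TPM in C57 (log2 change -1.65 ± 0.23, adjusted p = 0.000917), and kept its call in every setting. Postn, periostin, a matrix protein of injured tissue, was at 0.174, 1.15, 0.419 and 0.509 TPM against 7.61, 4.41, 4.89 and 1.97 TPM (log2 change -1.81 ± 0.31, adjusted p = 0.00277). Basement membrane chains were also among the 28, with log2 changes of -1.18 for Col4a1, -1.02 for Col4a2 and -1.47 for Lamc1, and so was the proteoglycan Bgn at -1.54. Tgfb1, the growth factor known to induce matrix genes, was lower as well (2.43 to 4.02 TPM against 4.93 to 8.22 TPM, log2 change -0.92 ± 0.20, adjusted p = 0.00769). The single member of the list with a positive value, at 0.09, did not pass the test.

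Cell markers moved alongside the matrix genes. Of 11 fibroblast markers tested, 9 were lower and 0 higher (median -1.22), and the markers summed to 34.2 to 37.1 TPM in Hap-II against 52.9 to 168.9 TPM in C57. Pdgfra, the receptor that marks interstitial fibroblasts, stood at 1.604, 2.26, 2.40 and 2.07 TPM in Hap-II and at 6.23, 8.01, 8.61 and 5.74 TPM in C57, with no overlap (log2 change -1.39 ± 0.19, adjusted p = 0.000917). Of 13 smooth muscle and pericyte markers, 10 were lower and 0 higher (median -0.83), with sums of 86.0 to 117 against 170.4 to 271 TPM. Acta2, smooth muscle actin (chromosome 19, 34241090 to 34255590), was at 5.28, 8.06, 6.81 and 7.37 TPM against 32, 30.96, 24.9 and 15.3 TPM (log2 change -1.73 ± 0.27, adjusted p = 0.00187). Myh11, smooth muscle myosin, changed by -1.56 ± 0.28 (adjusted p = 0.00361) and Pdgfrb, the pericyte receptor, by -1.46 ± 0.23 (adjusted p = 0.00192). No marker of either list was at 0 in all 4 libraries of a group, and the part of these cells in the matrix result was not tested. Without Hap-II libraries 3 and 4, the matrix list had 10 genes lower, the smooth muscle list 4 and the fibroblast list 1, all with 0 higher. Col1a1, Col3a1, Dcn and Lum stand in both the matrix and the fibroblast list. With each library's dependence on transcript length subtracted, 24 matrix genes, 11 smooth muscle genes and 9 fibroblast genes were lower, and with a filter of 5 TPM 18 matrix genes were.

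**Figure D1:**
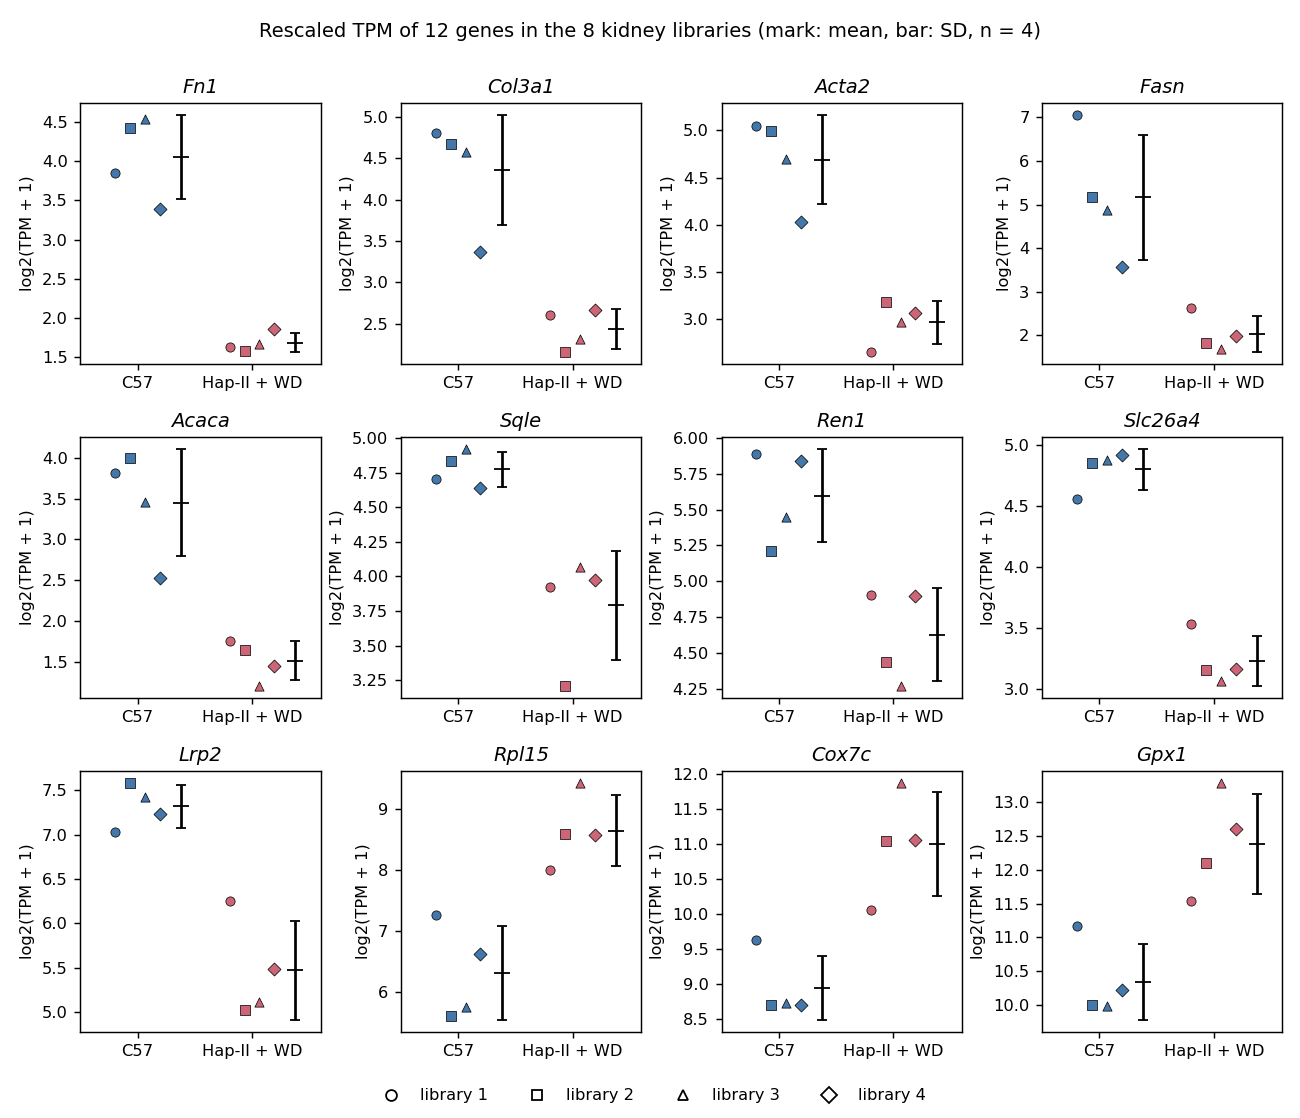
Rescaled TPM, as log2(TPM + 1), of 12 genes in the 4 C57 and 4 Hap-II libraries, with a point per library, its shape giving the library number, and the mean with its SD beside each group. Fn1 stands between 9.51 and 22.3 TPM in C57 and between 1.99 and 2.61 TPM in Hap-II, and the groups do not overlap for any of the 12 genes.

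Lipid synthesis genes were lower. In the fatty acid synthesis list, 9 of 18 measured members were lower and 1 was higher (median -0.79). Fasn (ENSMUSG00000025153, chromosome 11, 120805846 to 120824547), the synthase that builds palmitate, was at 5.18, 2.52, 2.21 and 2.97 TPM in Hap-II and at 132, 35, 28.1 and 10.9 TPM in C57. The groups did not overlap, although the C57 libraries themselves spread widely, from library 1 to library 4. The log2 change was -3.14 ± 0.53 (adjusted p = 0.00244). Acaca, the carboxylase that commits acetyl-CoA to fatty acids, fell from 13.1, 15.0, 10.02 and 4.77 TPM in C57 to 2.36, 2.13, 1.297 and 1.73 TPM (log2 change -1.94 ± 0.25, adjusted p = 0.000676). Acacb (-1.43), Acly (-0.77), Srebf1 (-0.99), Scd2 (-1.58) and Elovl6 (-1.75) were also lower. Scd1, the desaturase that makes oleate, split Hap-II: it stood at 208 and 122 TPM in libraries 1 and 2 and at 15.2 and 9.22 TPM in libraries 3 and 4, against 474, 404, 311 and 229.5 TPM in C57 (log2 change -2.92 ± 0.98, adjusted p = 0.0441). The call on Scd1 was lost when any of 6 libraries was left out, with an adjusted p of up to 0.148. Mlxipl, which encodes ChREBP, was the member called higher, at 19.2 to 30.7 TPM against 10.2 to 12.99 TPM (log2 change 0.97 ± 0.19, adjusted p = 0.00446).

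Promoters are printed for 2 genes called lower in the lipid synthesis lists (fatty acid and cholesterol), Fasn and Thrsp. They were picked because they held at least 2 matches to the letters capitalised below. The stretch runs from 130 bases before the annotated start to the base before it, on the transcribed strand, from RefSeq on GRCm38.p6, with CCAAT and its reverse complement ATTGG in capitals. These letters are bound by the factor NF-Y, a known partner of SREBP. In Fasn the letters CCAATTGG hold one match on each strand that overlap.
Fasn, chr11:120824548-120824677, minus strand: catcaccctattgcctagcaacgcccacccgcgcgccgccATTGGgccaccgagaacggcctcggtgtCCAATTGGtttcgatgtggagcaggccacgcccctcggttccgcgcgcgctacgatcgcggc
Thrsp, chr7:97417551-97417680, minus strand: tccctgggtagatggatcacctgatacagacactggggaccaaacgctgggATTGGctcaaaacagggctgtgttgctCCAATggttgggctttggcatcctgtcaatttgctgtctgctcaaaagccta
Over the same window, 23.2% of 27025 promoters held at least 1 match and 5.39% at least 2. Of the lipid synthesis lists, 32 genes had a promoter in the table, and 19 held at least 1 match (59.4%). Of the 8 called lower, 3 did (37.5%), a smaller share than in the lists as a whole. A match is a run of letters and no measure of binding. Thrsp, a lipogenic protein known as Spot 14, was at 2.74, 12.2, 4.41 and 7.39 TPM in Hap-II and 123, 59.5, 32.7 and 5.45 TPM in C57 (log2 change -2.37 ± 0.68, adjusted p = 0.024), and C57 library 4 fell within the Hap-II range.

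Fat cell markers were lower too. Of 10 adipocyte markers tested, 6 were lower and 0 higher (median -2.89), and the 14 found summed to 440.5 to 1337 TPM in Hap-II and 939 to 2313 TPM in C57. These sums overlapped, whereas those of the deposited TPM did not. Among them, Pck1, also made by proximal tubule, was at 164.5 to 1208 TPM as deposited in Hap-II. The deposited sums there were 275.6 to 1361 TPM, so they weigh Pck1 heavily. The lipid droplet gene Plin1 was listed at 0 in all Hap-II libraries. Cfd, adipsin, stood at 4.02, 3.86, 1.26 and 0.78 TPM against 810, 357, 121 and 12.1 TPM (log2 change -5.54 ± 1.13, adjusted p = 0.00623). Adipoq, the fat cell hormone adiponectin, was at 1.05, 3.48, 0.117 and 0.317 TPM against 89.5, 73.8, 22.8 and 1.75 TPM (log2 change -3.75 ± 0.94, adjusted p = 0.0141), where C57 library 4 lay within the Hap-II range. Car3, a carbonic anhydrase abundant in fat, changed by -4.14. In each of these genes C57 library 4 was the lowest of its group, as it was for Fasn and Acaca. With the mean of 6 adipocyte genes as a covariate, 0 lipogenesis genes and 2 matrix genes were called, among 29 in all, while the median changes were -0.84 and -0.86, against -0.79 and -1.02 without it. The 6 genes were Adipoq, Plin1, Cidec, Retn, Cfd and Adig. In that fit the values of Thrsp, Adipoq and Retn turned positive. Adipoq and Retn are part of the covariate, so their values there carry no information of their own. Whether the fat cell markers account for the lipogenic result was not tested. In the lipogenesis list 1 gene was lower with Hap-II libraries 3 and 4 left out, and 5 were lower and 1 higher without library 3 alone.

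Cholesterol genes moved less uniformly. Of 25 synthesis and uptake genes, 5 were lower and 0 higher (median -0.19). Sqle, squalene epoxidase, ranged from 8.24 to 15.8 TPM against 23.9 to 29.3 TPM (log2 change -0.98 ± 0.24, adjusted p = 0.0131), and Fdft1, which makes squalene, from 4.81 to 7.63 TPM against 10.1 to 17.6 TPM (log2 change -0.92 ± 0.23, adjusted p = 0.0139). Dhcr7 changed by -0.78. Hmgcs1 had a log2 change of 0.15 (adjusted p = 0.716) and Insig1 of 0.11 (adjusted p = 0.771), and in both the groups overlapped. The count was 3 without Hap-II library 3 or C57 library 1, 2 or 4, and 0 with Hap-II libraries 3 and 4 both left out. On the deposited scale, where 36.9% of all genes were lower, 15 of the 25 were. Among 14 genes of cholesterol efflux and handling, 2 were higher and 3 lower (median -0.36). Npc2, which carries cholesterol out of the lysosome, ranged from 46.5 to 56.8 TPM against 22.1 to 32.3 TPM (log2 change 0.95 ± 0.15, adjusted p = 0.00187), and Apob, the protein of chylomicrons and LDL, changed by -1.16 ± 0.22 (adjusted p = 0.00431). Scarb1, the HDL receptor, changed by -0.76. Nr1h3, the sterol sensor LXR alpha, had a log2 change of 0.68 (adjusted p = 0.0449) that turned to -0.02 on the deposited scale. That count was 2 without Hap-II library 3 and 3 without C57 library 2 or 4.

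Genes of fatty acid oxidation were spread on both sides, with 4 higher and 3 lower of 33 (median -0.06). Hadha, the alpha subunit of the mitochondrial trifunctional protein, was at 96.6, 68.8, 35.5 and 45.4 TPM against 118.8 to 130 TPM (log2 change -1.09 ± 0.27, adjusted p = 0.0138), and Cpt1b, a carnitine palmitoyltransferase, changed by -0.81. Pex11a, a peroxisome division protein, ranged from 28.6 to 44.99 TPM against 18.9 to 22.6 TPM (log2 change 0.74 ± 0.17, adjusted p = 0.00907). Ppara, the receptor that drives this programme, was at 31.2, 19.9, 48.2 and 25.0 TPM against 8.65, 15.95, 14.1 and 17.1 TPM (log2 change 1.07 ± 0.26, adjusted p = 0.0139), with no overlap. Of 22 PPAR target genes, 3 were higher, Ppara among them, and 1 lower, the fat cell gene Cidec. Acot1 was called higher (0.93), but with its near-identical neighbour Acot2 added the change was 0.27 (adjusted p = 0.409). Vnn1, a pantetheinase, was called higher at 0.57, but its change was -0.14 on the deposited scale. The familiar targets Cpt1a (-0.50), Angptl4 (0.33), Pdk4 (-0.20) and Cd36 (0.35) overlapped between groups, with adjusted p between 0.302 and 0.798. Without Hap-II libraries 3 and 4 neither list had a called gene. Without Hap-II library 3 or 4, or C57 library 2, 3 or 4, the oxidation count was 2 or 3, and the PPAR count was 1 or 2.

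Within the renin-angiotensin system, 2 of 13 measured genes were lower and 0 higher (median -0.51). Ren1 (ENSMUSG00000070645, chromosome 1, 133350510 to 133360325), the renin gene, was at 28.9, 20.6, 18.3 and 28.8 TPM in Hap-II and at 58.4, 36.1, 42.7 and 56.3 TPM in C57. The groups did not overlap, and the log2 change was -0.97 ± 0.32 (adjusted p = 0.0389). Hsd11b2, which shields the mineralocorticoid receptor from cortisol and corticosterone, changed by -1.04 ± 0.36 (adjusted p = 0.0481). Both calls were lost when most single libraries were left out, with adjusted p of up to 0.124 for Ren1 and 0.172 for Hsd11b2. The list then had 0 called genes without Hap-II library 2, 3 or 4 or C57 library 3 or 4, 1 without C57 library 1 or 2 and 4 without Hap-II library 1. Agt, the substrate angiotensinogen, had a log2 change of -0.87 (adjusted p = 0.0588), and Ace, the converting enzyme, stood at 52.1, 19.3, 20.01 and 32.3 TPM against 56.6 to 67.9 TPM (log2 change -1.14, adjusted p = 0.0511). The mouse receptor gene Agtr1a overlapped, at 16.9, 10.47, 14.2 and 14.5 TPM in Hap-II and 16.8, 17.4, 17.3 and 11.9 TPM in C57 (log2 change -0.17 ± 0.24, adjusted p = 0.636). Agtr1b lay below the filter, listed at 0 in all 4 Hap-II libraries and at no more than 0.0744 TPM in C57.

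Sodium transport genes were lower, mostly those of the distal nephron. Of 28 measured, 9 were lower and 0 higher (median -0.78). Slc26a4 (ENSMUSG00000020651, chromosome 12, 31519827 to 31559969), the chloride-bicarbonate exchanger pendrin of intercalated cells, was at 10.6, 7.94, 7.37 and 7.99 TPM in Hap-II and at 22.5, 27.9, 28.4 and 29.1 TPM in C57. The gap between groups exceeded the spread within either (log2 change -1.57 ± 0.27, adjusted p = 0.00291). The 3 subunits of the epithelial sodium channel of the collecting duct were all lower, Scnn1a by -1.47 ± 0.38 (adjusted p = 0.016), Scnn1b by -1.24 ± 0.32 (adjusted p = 0.0149) and Scnn1g by -0.99 ± 0.28 (adjusted p = 0.0208). Scnn1a was at 19.1, 11.2, 6.23 and 12.3 TPM against 24.6, 33.9, 35 and 42.2 TPM. The chloride channel subunit Bsnd (-1.004) and the kinase Wnk4 (-0.82) were also lower. Slc12a1, the cotransporter blocked by furosemide, was at 144, 138, 80.0 and 72.6 TPM against 162, 315, 304 and 341 TPM (log2 change -1.37 ± 0.47, adjusted p = 0.0474), a call lost without any of 6 single libraries. Slc12a3, the thiazide-sensitive cotransporter, missed the threshold at -0.93 (adjusted p = 0.0546).

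Some principal and intercalated cell markers of the distal nephron were lower, in part the same genes as above. Scnn1b, Scnn1g, Slc26a4, Wnk4 and Slc12a1 stand in both the sodium transport list and a marker list. Hsd11b2 stands in both the renin-angiotensin and the principal cell list. The part of segment markers in the sodium transport changes was not tested. Over all genes 12.5% were higher and 10.1% lower, and the distal convoluted and thick limb counts were near or under these shares. Of 12 principal cell markers 4 were lower (median -0.68), of 14 intercalated cell markers 3 (median -0.70), of 10 distal convoluted tubule markers 1, Wnk4 (median -0.53), and of 12 thick limb markers 1 was lower, Slc12a1, and 1 higher, Cldn10 (median -0.46). Principal cell markers summed to 224.9 to 604.9 TPM in Hap-II and 409 to 831 TPM in C57, which overlapped, although the deposited sums did not. Intercalated markers summed to 155 to 218.5 TPM against 282 to 345 TPM, with no overlap. Rhcg, the ammonia channel of intercalated cells, was at 40.8, 25.2, 18.1 and 31.6 TPM against 72.0, 53.2, 63.3 and 71.6 TPM (log2 change -1.19 ± 0.24, adjusted p = 0.00634). Cldn10, a paracellular cation pore, was at 226, 374, 706 and 357 TPM against 132.5 to 158 TPM (log2 change 1.41 ± 0.28, adjusted p = 0.00591). Umod and Egf, both made by the thick limb, overlapped (adjusted p = 0.257 and 0.166), and C57 library 1 held 53.9 TPM of Egf and the other C57 libraries 254 to 334 TPM. Of the sodium transport genes, leaving out Hap-II library 3 kept 2 lower, leaving out Hap-II library 4 kept 5, C57 library 4 3 and Hap-II libraries 3 and 4 together 0. On the deposited scale, where 36.9% of all genes were lower, 20 of 28 were. The principal cell count was 0 or 1 with Hap-II library 3 or 4 left out and 2 without C57 library 1, 2 or 4, and the intercalated count was 5 without Hap-II library 1. Wnk4 lost its call whichever of the 8 libraries was left out, with an adjusted p of up to 0.124, and the distal convoluted count was 2 without Hap-II library 1 and 3 without C57 library 1. Slc12a1 was no longer called without library 2, 3 or 4 of either group, and without Hap-II libraries 3 and 4 no list of nephron markers had a call.

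Proximal tubule uptake genes were split. Of 38 transporters and endocytic receptors, 7 were lower and 0 higher, but 19 had a positive value and the median was -0.0027. The lower ones included both giant receptors of protein uptake. Lrp2, megalin, stood at 75.1, 31.5, 33.7 and 43.8 TPM in Hap-II and at 129.5, 190.1, 170.5 and 149.8 TPM in C57 (log2 change -1.85 ± 0.38, adjusted p = 0.0066). Cubn, cubilin, was at 24.1, 9.54, 8.50 and 13.5 TPM against 36.6, 64.4, 55.1 and 46.3 TPM (log2 change -1.87 ± 0.37, adjusted p = 0.00516). Aqp1, the water channel of this segment, changed by -0.81 and Slc6a18, an amino acid transporter, by -1.01. The glucose cotransporter Slc5a2 (0.06) and the phosphate cotransporter Slc34a1 (-0.43) overlapped between groups. Slc22a7, an organic anion transporter higher in female kidney, was at 95.1, 42.7, 11.05 and 18.3 TPM against 242, 150.0, 132 and 137 TPM (log2 change -2.36 ± 0.57, adjusted p = 0.0123), and its lowest values were in Hap-II libraries 3 and 4. Among 18 proximal marker genes, 1 was higher, the creatine synthesis enzyme Gatm (221 to 383 TPM against 113 to 166 TPM, log2 change 1.16 ± 0.30, adjusted p = 0.0163), and 4 were lower, Lrp2 and Cubn among them. The transporter count was 3 without Hap-II library 3 and 0 without libraries 3 and 4, and on the deposited scale it was 16 of 38, near the 36.9% of all genes that were lower there.

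No gene of a list known to rise in injured tubules was called higher. Of 25 measured, 5 were lower (median -0.04), and 8 had an unadjusted p under 0.05. Havcr1, which encodes KIM-1, stood at 1.25, 1.10, 2.83 and 1.26 TPM in Hap-II and at 1.35, 1.301, 1.52 and 0.81 TPM in C57 (log2 change 0.18 ± 0.30, adjusted p = 0.688). Lcn2, which encodes NGAL, was at 6.92, 4.87, 1.27 and 4.55 TPM against 8.11, 4.00, 7.54 and 9.38 TPM (log2 change -0.70 ± 0.40, adjusted p = 0.212), and the groups overlapped. Clu, the chaperone clusterin, was at 137, 98.9, 42.4 and 47.4 TPM against 324, 209, 218 and 233 TPM (log2 change -1.73 ± 0.43, adjusted p = 0.0137). Cp, ceruloplasmin, changed by -1.33 ± 0.36 (adjusted p = 0.0181), and Krt7 and Krt18, keratins of simple epithelia, by -1.22 and -1.32. Markers of urothelium, which lines the renal pelvis, moved with the keratins. Of 9 tested 5 were lower (median -1.54), their sums overlapping at 16.4 to 75.6 TPM in Hap-II and 46.9 to 238 TPM in C57, and their part was not tested. C57 library 1 was the highest in Krt5, Upk1a and Krt15. The injury count was 1, 2, 2 and 3 without Hap-II library 3, Hap-II library 4, C57 library 3 and C57 library 4. The urothelial count was 0 without Hap-II library 3 or 4, 1 without C57 library 1, 2 without Hap-II library 1 or C57 library 3 or 4, and 3 without Hap-II library 2 or C57 library 2. Neither list had a call without Hap-II libraries 3 and 4.

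Ribosomal protein genes were higher as a block. Of 45 measured, 36 were higher and 0 lower, all 45 had a positive value, and the median log2 change was 1.24. On the deposited scale 17 were higher and 2 lower (median 0.51). Rpl15 (ENSMUSG00000012405, chromosome 14, 18267823 to 18271391), a protein of the large subunit, was at 255, 386, 690.1 and 381 TPM in Hap-II and at 152.5, 47.6, 53.0 and 97.5 TPM in C57. All Hap-II libraries lay above all C57 libraries, with library 3 the highest and C57 library 1 the nearest (log2 change 2.34 ± 0.37, adjusted p = 0.00187). Summed with its 5 near-identical pseudogenes the change was 1.06 (adjusted p = 0.0136). Rps7, of the small subunit, was at 361, 689, 1033 and 634 TPM against 283, 101, 109 and 145 TPM (log2 change 2.12 ± 0.33, adjusted p = 0.00173). Rps24 overlapped, at 1129, 3164, 6621 and 2360 TPM against 1169, 703, 772 and 707 TPM (log2 change 1.74 ± 0.45, adjusted p = 0.016). Outside the list, Rps13 and Rps26 were among the largest increases of all genes. Rps26 was at 254, 239, 228.5 and 270.4 TPM against 64.8, 8.95, 10.49 and 49.3 TPM (log2 change 3.32 ± 0.48, adjusted p = 0.00112). Rps13 changed by 3.75 ± 0.48 alone and by 1.6 when summed with 3 pseudogenes.

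Transcripts of ribosomal proteins are known to start with a run of pyrimidines, the terminal oligopyrimidine tract, which ties their translation to growth signals. The stretch from 30 bases before to 12 bases after the annotated start is printed for 4 called members (RefSeq, GRCm38.p6, transcribed strand). Capitals mark a run of at least 8 C or T that reaches within 5 bases of the start. The 4 are the largest changes among called members that hold such a run, so its presence in all 4 was set by the choice.
Rpl15, chr14:18270975-18271016, minus strand: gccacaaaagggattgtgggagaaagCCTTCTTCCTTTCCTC
Rps24, chr14:24490648-24490689, plus strand: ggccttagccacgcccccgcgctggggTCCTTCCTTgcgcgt
Rps18, chr17:33955654-33955695, minus strand: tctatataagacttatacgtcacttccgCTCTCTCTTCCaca
Rps9, chr7:3704011-3704052, plus strand: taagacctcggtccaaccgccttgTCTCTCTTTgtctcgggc
Such a run was present in 9.3% of 27025 promoters, in 11 of 33 listed ribosomal protein genes with a promoter in the table (33.3%) and in 10 of the 27 called higher (37.0%). Rps18 changed by 1.72 ± 0.42 (adjusted p = 0.0125) and Rps9 by 1.41 ± 0.33 (adjusted p = 0.0106). The run describes the annotated start only, and translation was not measured.

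The count of 36 ribosomal protein genes rested on several libraries. Leaving out Hap-II library 2 or 3 gave 20 or 12. It was 15 without C57 library 2 or 3, 16 without C57 library 4 and 2 without Hap-II libraries 3 and 4. The C57 libraries themselves differed, since library 1 held 35780 TPM of these transcripts as deposited and libraries 2 to 4 held 22610, 24450 and 26990 TPM. Over the Hap-II libraries the sum ranged from 31030 to 45710 TPM.

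Subunits of oxidative phosphorylation moved in the same direction. Of 47 nuclear genes, 21 were higher and 0 lower (median 0.74), whereas on the deposited scale 6 were higher and 10 lower (median 0.01). Cox7c (ENSMUSG00000017778, chromosome 13, 86044816 to 86046904), a small subunit of cytochrome oxidase, was at 1058, 2105, 3739 and 2129 TPM in Hap-II and at 786, 415, 423 and 415 TPM in C57. It did not overlap (log2 change 2.07 ± 0.38, adjusted p = 0.00381). Cycs, cytochrome c, was at 47.5, 91.3, 184 and 106 TPM against 30.3, 26.3, 23.8 and 18.1 TPM (log2 change 1.94 ± 0.37, adjusted p = 0.00427). Coa6 and Chchd10, small proteins of the mitochondrial intermembrane space, were among the largest increases of all genes, by 3.21 and 2.49. The count of 21 was 7, 4 and 10 without Hap-II library 2, 3 or 4, was 4, 5 and 5 without C57 library 2, 3 or 4, and was 0 without Hap-II libraries 3 and 4.

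Genes of the mitochondrial genome were higher too. All 13 protein-coding genes had a positive value and 10 passed the test (median 1.36). With transcript length adjusted 7 passed (median 0.96), and with length and GC content adjusted 2 did (median 0.24). Their share of all deposited TPM was 22.5, 21.2, 26.1 and 27.8% in Hap-II and 12.4, 16.9, 16.8 and 14.7% in C57, with no overlap. The means were 24.4% ± 3.06 and 15.2% ± 2.13 (SD, n = 4), a difference of 9.20 points. A two-sided exact permutation test gave p = 0.0286, the smallest that 4 against 4 libraries allow, and an adjusted p of 0.0562 over 59 library measures. mt-Nd5, a subunit of complex I, was at 3871, 4564, 10650 and 9734 TPM against 1434, 2411, 2254 and 2045 TPM (log2 change 1.71 ± 0.37, adjusted p = 0.00747). mt-Co1, of cytochrome oxidase, changed by 1.22 ± 0.40 (adjusted p = 0.0395). The count of 10 was 5 without Hap-II library 3, 6 without library 4 of either group, and 1 without Hap-II libraries 3 and 4.

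Transcripts of both blocks are short, and over all genes short transcripts were more often called higher and long ones lower. In the shortest of 10 equal bins of genes, 38 to 1075 bases long, 28.6% were higher and 2.8% lower, with a median log2 change of 0.50. In the longest bin, of 6427 bases or more, 3.5% were higher and 17.8% lower, with a median of -0.26. Across 12848 genes, Spearman's rho of the log2 change with length was -0.33 and with GC content -0.28, a description across genes, which are not replicates. Ribosomal protein genes had a median length of 954 bases, nuclear oxidative phosphorylation genes of 1005 bases and matrix genes of 5612 bases. When each library's dependence on length was subtracted, 1427 genes were higher (11.1%) and 1285 lower (10%), and 2159 of the 2923 calls (73.9%) were kept. The shares higher and lower were then 13.6 and 11.1% among the shortest genes and 9.73 and 9.34% among the longest. After this adjustment, 26 ribosomal protein genes were higher and 0 lower (median 0.69), and 12 nuclear oxidative phosphorylation genes were higher and 2 lower (median 0.20). The slope of expression on log2 length was -0.09 in C57 library 1 and 0.19 to 0.22 in the other C57 libraries, and it ranged from -0.12 to 0.06 in Hap-II (exact permutation p = 0.114, adjusted p = 0.147). What sets the slope was not tested.

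**Figure D2:**
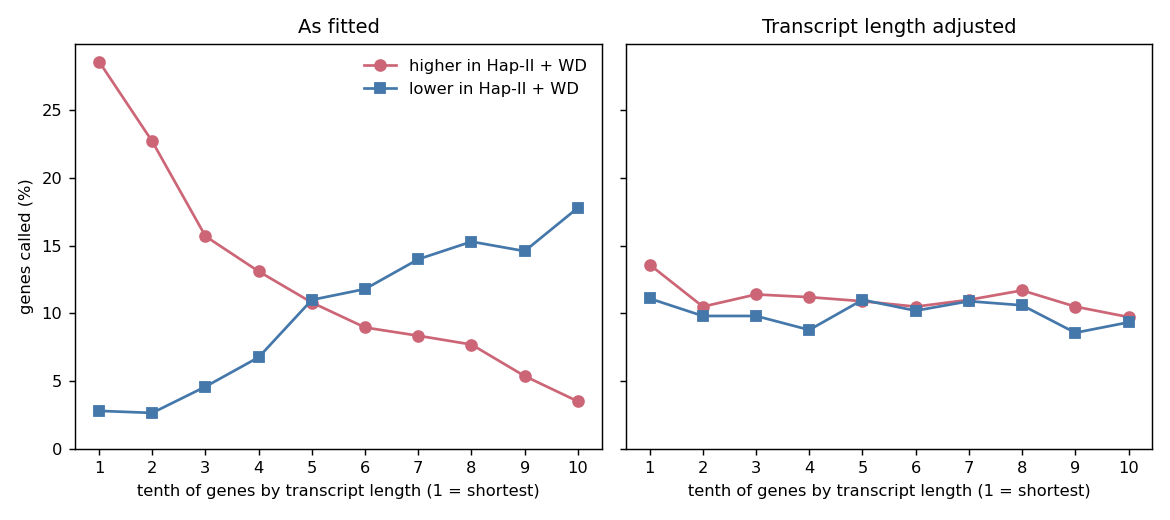
Percentage of genes called higher or lower in Hap-II on the western diet, in 10 equal bins of genes ordered by transcript length, as fitted (left) and with transcript length adjusted (right). As fitted, the share called higher goes from 28.6% in the shortest bin to 3.5% in the longest, and after adjustment from 13.6% to 9.73%.

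**Figure D3:**
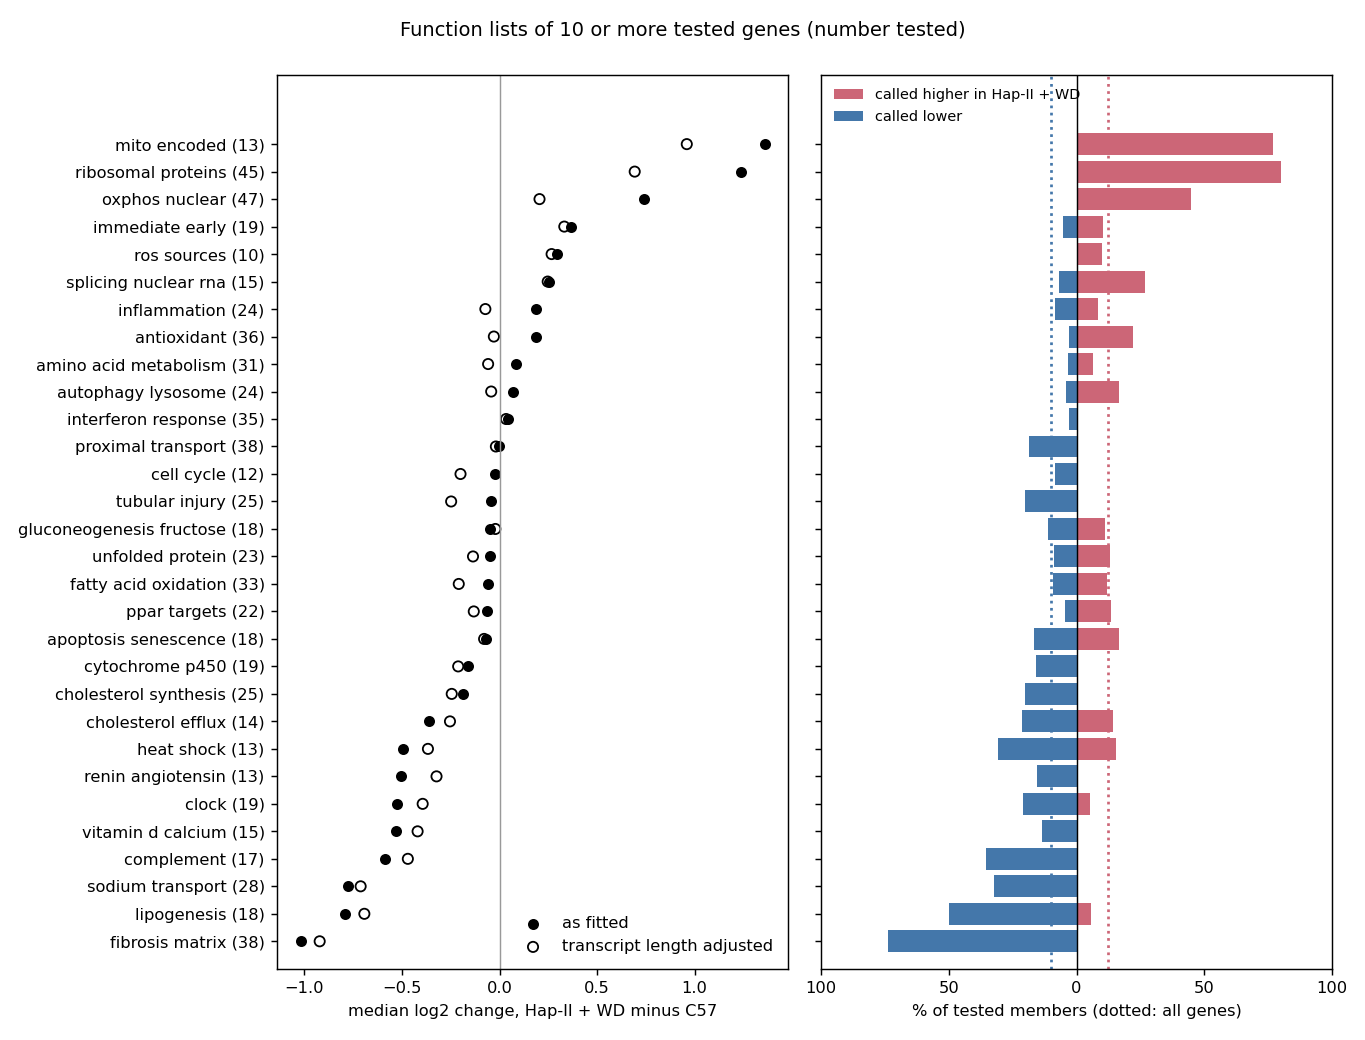
Left, the median log2 change (Hap-II on western diet minus C57) of each function list with 10 or more tested genes, as fitted and with transcript length adjusted; right, the percentage of tested members called higher or lower, with dotted lines at 12.5% and 10.1%, the shares over all genes. Mitochondrially encoded and ribosomal protein genes stand at the top, at 1.36 and 1.24, and matrix genes at the bottom, at -1.02.

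Antioxidant genes included abundant selenoproteins and peroxiredoxins that were higher. Of 36 measured, 8 were higher and 1 lower (median 0.19), but on the deposited scale 1 was higher and 9 lower (median -0.53). Gpx1, the main cytosolic glutathione peroxidase, was at 2979, 4400, 9948 and 6247 TPM in Hap-II and at 2310, 1024, 1008 and 1193 TPM in C57. All Hap-II libraries were above C57, and C57 library 1 stood apart from the other C57 libraries (log2 change 2.04 ± 0.40, adjusted p = 0.00522). Selenop, the selenium carrier of plasma, was at 758.5, 1166, 6254 and 3284 TPM against 266 to 330.5 TPM (log2 change 2.81 ± 0.58, adjusted p = 0.00669), highest in Hap-II libraries 3 and 4. Gpx3, the plasma peroxidase that the proximal tubule makes, ranged from 14490 to 18700 TPM against 8507 to 9447 TPM (log2 change 0.83 ± 0.25, adjusted p = 0.0292). Sod2, mitochondrial superoxide dismutase, was at 25.0 to 27.6 TPM against 16.9 to 21.3 TPM (log2 change 0.43 ± 0.13, adjusted p = 0.0265), a direction that turned to -0.27 on the deposited scale and -0.14 with mitochondrial genes removed. Gstm1, a glutathione transferase, was the member called lower, at 262, 205.5, 152 and 163 TPM against 593, 396, 444 and 403 TPM (log2 change -1.24 ± 0.20, adjusted p = 0.00208). Cat (0.02) and Hmox1 (0.26) overlapped between groups. Of 10 sources of reactive oxygen, Cyba, a subunit of NADPH oxidase, was called higher (1.35 ± 0.35, adjusted p = 0.0151), but not without Hap-II library 3, and Nox4 (0.37) and Cybb (0.49) were not called. The antioxidant count was 2 without Hap-II library 3 or C57 library 3 or 4, 3 without Hap-II library 2 or C57 library 2, 4 without Hap-II library 4 and 0 with Hap-II libraries 3 and 4 left out.

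Immune genes showed no common direction. Of 24 inflammation genes, 2 were higher and 2 lower (median 0.19). Il1b, a cytokine of myeloid cells, was at 6.35, 4.50, 5.00 and 1.83 TPM in Hap-II and at 1.04, 1.54, 0.766 and 0.551 TPM in C57, with no overlap (log2 change 1.40 ± 0.37, adjusted p = 0.0165). The call on Il1b was lost without Hap-II library 3 or C57 library 4. Neutrophil markers moved with it. S100a9 and S100a8, the calprotectin pair, were higher by 3.06 ± 0.70 (adjusted p = 0.00953) and 2.67 ± 0.75 (adjusted p = 0.0212), 2 of 4 markers tested. The 9 markers found summed to 10.4 to 74.2 TPM against 1.49 to 5.18 TPM, with Ly6g listed at 0 in all Hap-II libraries and Camp and Ngp in all C57 libraries, and their part in the inflammation result was not tested. S100a9 was at 15.3, 5.45, 43.5 and 22.5 TPM against 2.58, 1.12, 0.742 and 0.71 TPM. Cx3cl1, a chemokine of epithelium and endothelium, changed by -0.94 and Rela, an NF-kappaB subunit, by -0.84. Ccl2 (0.19) and Vcam1 (0.29) overlapped, with adjusted p = 0.733 and 0.411. Il6 was listed at 0 in all 8 libraries, and Tnf lay below the filter. The inflammation count was 2, 0 and 1 without Hap-II library 2, Hap-II library 3 and C57 library 4. That of the neutrophil markers was 1 without Hap-II library 3 or C57 library 2 or 4, and neither list had a call without Hap-II libraries 3 and 4.

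Complement genes were lower. Of 17 measured, 6 were lower and 0 higher (median -0.59), led by Cfd, which is also a fat cell gene. C3, the central component, was at 4.93, 2.56, 1.72 and 2.07 TPM against 28.1, 38.04, 20.6 and 6.61 TPM (log2 change -2.51 ± 0.49, adjusted p = 0.00504), with no overlap. Serping1, the inhibitor of C1, was at 18.1, 30.3, 22.1 and 26.9 TPM against 72.4, 56.9, 65.5 and 50.7 TPM (log2 change -1.31 ± 0.25, adjusted p = 0.00431). C2 and the proteases C1ra and C1s1 of the classical pathway were lower, with log2 changes of -1.14, -0.89 and -0.83. The count was 3 without Hap-II library 3 and 0 without libraries 3 and 4. Of 35 interferon genes 1 was lower, Gbp3 (-1.54), a call lost without any of 6 single libraries. Of 9 genes of MHC class II, which present antigen, 0 were called by limma in either direction and 1 had an unadjusted p under 0.05 (median 0.22), and 1 was called without C57 library 1. Of 20 macrophage markers tested, 1 was lower, Tyrobp, an adaptor of myeloid receptors, and the marker sums overlapped, at 247 to 291 TPM in Hap-II and 125.5 to 319 TPM in C57. Without Hap-II library 1 or C57 library 1, 3 macrophage markers were called. Without Hap-II library 1, 2 interferon genes were.

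Clock and stress genes moved in both directions. Over all genes 12.5% were higher and 10.1% lower, and the immediate early counts were not above these shares. Of 19 clock genes 4 were lower and 1 was higher (median -0.52). Dbp, a clock output factor, was at 5.20, 2.69, 3.51 and 2.84 TPM against 13.6, 6.92, 8.55 and 15.7 TPM (log2 change -1.39 ± 0.31, adjusted p = 0.00907), and Nr1d1, a repressor of the loop, changed by -1.25 ± 0.30 (adjusted p = 0.0121). Arntl (0.52) and Per1 (-0.73) overlapped, and the hour of collection is not given in the sources used here. Of 19 immediate early genes 2 were higher and 1 was lower (median 0.37). Fos, a transcription factor induced within minutes of a stimulus, was at 6.08, 2.34, 6.12 and 2.24 TPM against 0.695, 0.531, 0.486 and 0.481 TPM (log2 change 1.64 ± 0.38, adjusted p = 0.0102), and Dusp1, a phosphatase of the same response, changed by 1.28 ± 0.32 (adjusted p = 0.014). Of 13 heat shock genes 2 were higher and 4 lower (median -0.50), with Hspe1, a mitochondrial chaperonin, at 1.51 and Hsph1, a cytosolic chaperone, at -1.6. Without Hap-II libraries 3 and 4, 1 heat shock gene and 0 clock or immediate early genes were called. Without Hap-II library 3 the heat shock count was 1, and without Hap-II library 2 or 3 or C57 library 3 or 4 the clock count was 3.

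The counts of the lists that follow are small and stand beside 12.5% higher and 10.1% lower over all genes. Among genes of fructose and glucose handling 2 of 18 were higher and 2 lower (median -0.05), near those shares. Khk, fructokinase, was at 243, 398, 437 and 314 TPM in Hap-II and at 259, 115, 119 and 152 TPM in C57 (log2 change 1.15 ± 0.25, adjusted p = 0.00812), where C57 library 1 lay within the Hap-II range. Of 31 amino acid metabolism genes 2 were higher and 1 was lower, of 19 cytochrome P450 genes and partners 3 were lower, and of 23 genes of the unfolded protein response 3 were higher and 2 lower. Of 18 apoptosis and senescence genes 3 were higher and 3 lower, among them Phlda3 (-1.76), a target of p53, and Fas (1.10), a death receptor. Of 15 genes of splicing 4 were higher and 1 was lower, and of 24 autophagy and lysosome genes 4 were higher and 1 was lower. Of 15 genes of vitamin D and calcium handling 2 were lower, the calcium channel Trpv5 (-1.70) and Fgfr1 (-0.78), and of 12 cell cycle genes 1 was, the helicase subunit Mcm6 (-0.68). Among 14 podocyte markers 1 was lower, Actn4 (-0.92), and among 19 endothelial markers 2 were, Cdh5 (-0.59) and Ehd3 (-0.71). The endothelial sums overlapped, at 265.6 to 372.9 TPM against 371.5 to 475 TPM, although the deposited sums did not. Of the 10 housekeeping genes 1 was higher, Hprt (1.46), and 1 lower.

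Counts this small moved with single libraries. The glucose and fructose count was 1 without Hap-II library 2 or 3 or C57 library 3 or 4 and 2 without C57 library 1 or 2, and the amino acid count was 6 with Hap-II library 1 left out. Leaving out Hap-II library 3 gave 1 amino acid gene, 1 cytochrome P450 gene and 1 gene of the unfolded protein response, and without C57 library 3 or 4, 3 of the latter. The apoptosis count was 3 without Hap-II library 2 or 4 or C57 library 3 or 4. The splicing count was 2 without Hap-II library 2 or 3 or C57 library 4 and 3 without C57 library 1, 2 or 3. The autophagy count was 1 without Hap-II library 3 or C57 library 4 and 3 without Hap-II library 4. Vitamin D and calcium genes numbered 5 without C57 library 1, 0 without Hap-II library 3, and 1 when either other library from 2 to 4 of Hap-II or any from 2 to 4 of C57 was left out. The endothelial count was 0 without C57 library 4 and 1 without Hap-II library 3 or C57 library 2 or 3. The housekeeping count was 5 without Hap-II library 1 and 1 without any other single library but C57 library 1. None of these lists had a called gene without Hap-II libraries 3 and 4.

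Markers of blood, nerve and adrenal cells differed in level and direction. Erythrocyte markers summed to 3265 to 10630 TPM in Hap-II and 548 to 1891 TPM in C57, with 2 of 6 higher, Hbb-bs (2.87) and Hbb-bt (2.86), which share sequence. Of 13 T and natural killer cell markers 1 was higher, Gzma (1.28), and of 9 B and plasma cell markers 1 was lower, Igha (-1.79). Neuron markers summed to 2.40 to 3.82 TPM against 7.23 to 8.37 TPM, with 0 of 3 tested called by limma and 1 at an unadjusted p under 0.05. Adrenal markers summed to 1.57 to 4.21 TPM against 6.40 to 15.3 TPM, with 0 of 2 tested called by limma and 1 at an unadjusted p under 0.05, and 8 of the 15 found were listed at 0 in all Hap-II libraries. Of 8 astrocyte markers, with sums of 190.1 to 280.2 TPM against 424.5 to 576 TPM, 4 were lower, and of 4 oligodendrocyte markers 2 were. These include Glul and Ndrg2, which kidney makes as well. Gzma was not called without Hap-II library 3, nor Igha without Hap-II library 2 or 3 or any C57 library, and 1 oligodendrocyte marker was called without Hap-II library 3 or 4 or C57 library 1 or 4. Without C57 library 1, 1 adrenal marker was lower. In 8 other libraries of the series that hold brain transcripts, 120 tested genes had a mean at least 50 times their C57 mean. Of these, 3 were higher and 26 lower, beside 12.5% higher and 10.1% lower over all genes. C57 values entered both this choice and the comparison.

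**Figure D4:**
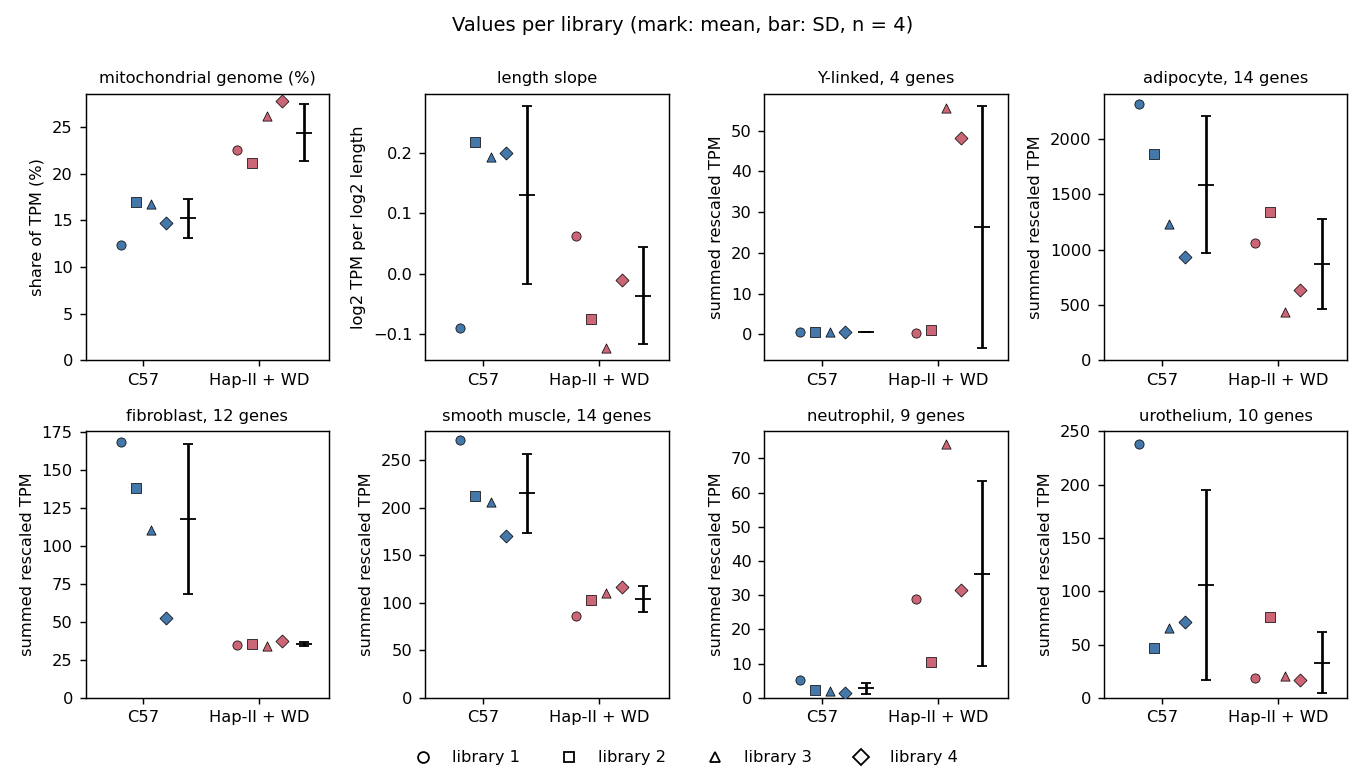
Share of TPM from the mitochondrial genome, slope of expression on log2 transcript length, and rescaled TPM summed over 6 marker lists, with a point per library and the mean with its SD for each group. The Y-linked sum is 55.5 and 48.3 TPM in Hap-II libraries 3 and 4 and at most 1.01 TPM elsewhere, and the smooth muscle sums of the groups do not overlap.

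Some genes known to differ between male and female mouse kidney followed the Y-linked transcripts within Hap-II. Kap, the androgen-regulated kidney protein, was at 16520, 19100, 114300 and 82300 TPM in Hap-II libraries 1 to 4 and at 15650 to 38870 TPM in C57 (log2 change 0.81 ± 0.88, adjusted p = 0.524). Slco1a1, an organic anion transporter of male tubules, was at 0.0349, 0.292, 116 and 94.4 TPM in Hap-II and at no more than 0.0154 TPM in C57. Slc7a13, a cystine transporter of male tubules, was at 1.04, 1.21, 344 and 277 TPM against 0.978 to 1.304 TPM. None of these passed the test, as libraries 1 and 2 stood near C57. Of 15 genes listed as higher in male kidney, 0 were called higher and 1 lower (median 1.43, or -0.42 without libraries 3 and 4). Of 14 genes listed as higher in female kidney, 3 were lower (median -0.82, or -0.40 without those libraries). The sex bias of single members of these lists was not checked here. The member of the male list called lower was Abcc4 (-1.42), which lost its call without Hap-II library 2, 3 or 4 or C57 library 2, 3 or 4. Of the 4 Y-linked genes 0 were called by limma and 0 had an unadjusted p under 0.05, while 1 was called higher without Hap-II library 1. Abcc3, a bile acid exporter of the female list, was at 17.2, 8.49, 1.08 and 0.333 TPM against 34.7 to 46.8 TPM (log2 change -3.07 ± 0.79, adjusted p = 0.0155). With the mean of the Y-linked genes as a covariate, 657 genes were higher and 560 lower, and 102 of 158 called genes named by rule kept their calls.

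Hap-I adults on the same diet are the nearest group, and their changes from the same C57 libraries are given side by side. Fn1 changed by -2.37 in Hap-II and -2.30 in Hap-I, Fasn by -3.14 and -2.96, Rpl15 by 2.34 and 2.29, and Slc26a4 by -1.57 and -1.25. Both comparisons share the 4 C57 libraries, so likeness between them is no separate evidence. Tested directly, Hap-II differed from Hap-I adults in 9 of 12923 genes (0.0696%), 5 higher and 4 lower in Hap-II, and 569 had an unadjusted p under 0.05. Of these 9 genes, 6 also differed from C57, and 6 either have or are a near-identical copy.

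The clearest case is Gm4737 (chromosome 16, 46152985 to 46155077), which copies Ahcy, the enzyme that hydrolyses S-adenosylhomocysteine. It stood at 94.7, 134, 187 and 116 TPM in Hap-II, and C57 libraries listed it at 0 except library 3 at 0.123 TPM. Its level in Hap-I adults was 0.348 ± 0.592 TPM (SD, n = 4). Ahcy moved the other way, at 55.4, 55.8, 4.99 and 76.9 TPM in Hap-II against 139, 113, 104 and 119 TPM in C57. The copy made up 72.8% ± 17.0 of the summed level in Hap-II and 0.0295% ± 0.059 in C57. The sum was 181 ± 20.9 TPM in Hap-II, 119 ± 14.6 TPM in C57 and 176 ± 32.9 TPM in Hap-I, and its log2 change from C57 was 0.61 (adjusted p = 0.0225), with no called difference from Hap-I (adjusted p = 0.994).

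Sap18, a subunit of the Sin3 corepressor (chromosome 14, 57798180 to 57806638), was at 9.73, 8.87, 8.32 and 7.95 TPM in Hap-II against 60.5, 45.7, 47.8 and 41.7 TPM in C57 (log2 change -2.35 ± 0.24, adjusted p = 7.35e-05). Its copy Sap18b was at 103, 129, 146 and 129 TPM against 60.5, 30.8, 31.3 and 33.8 TPM. The copy held 93.5% ± 1.43 of the sum in Hap-II, 43.7% ± 4.80 in C57 and 63.6% ± 13.1 in Hap-I adults, and the sum changed by 0.64 (adjusted p = 0.0456). In aged Hap-I mice Sap18 was at 9.55 ± 1.82 TPM, close to Hap-II. The mitochondrial gene mt-Nd3 (mitochondrial genome, 9459 to 9806), a subunit of complex I, was at 8692, 13860, 25200 and 19180 TPM in Hap-II against 1752, 1445, 1121 and 721 TPM in C57. Its copy Gm28438 ran opposite, at 152.5, 281, 124 and 112.5 TPM against 5913, 3590, 4267 and 2821 TPM. The copy's share of the sum was 1.20% ± 0.771 in Hap-II, 76.8% ± 3.83 in C57 and 74.4% ± 3.54 in Hap-I adults. Summed, the pair changed by 1.59 (adjusted p = 0.0261). With copies summed, 1 gene differed between the Hap-II and Hap-I adults, Tusc3, a subunit of the oligosaccharyltransferase complex, at 5.03 to 16 TPM in Hap-II and 0.00278 ± 0.00555 TPM in Hap-I. Its level in C57 was 17.0 to 21.6 TPM, and the change from C57 missed the threshold (log2 change -0.97, adjusted p = 0.0545). How pseudo-aligned reads were divided between copies cannot be told from TPM, so single members of such pairs are uncertain.

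**Figure D5:**
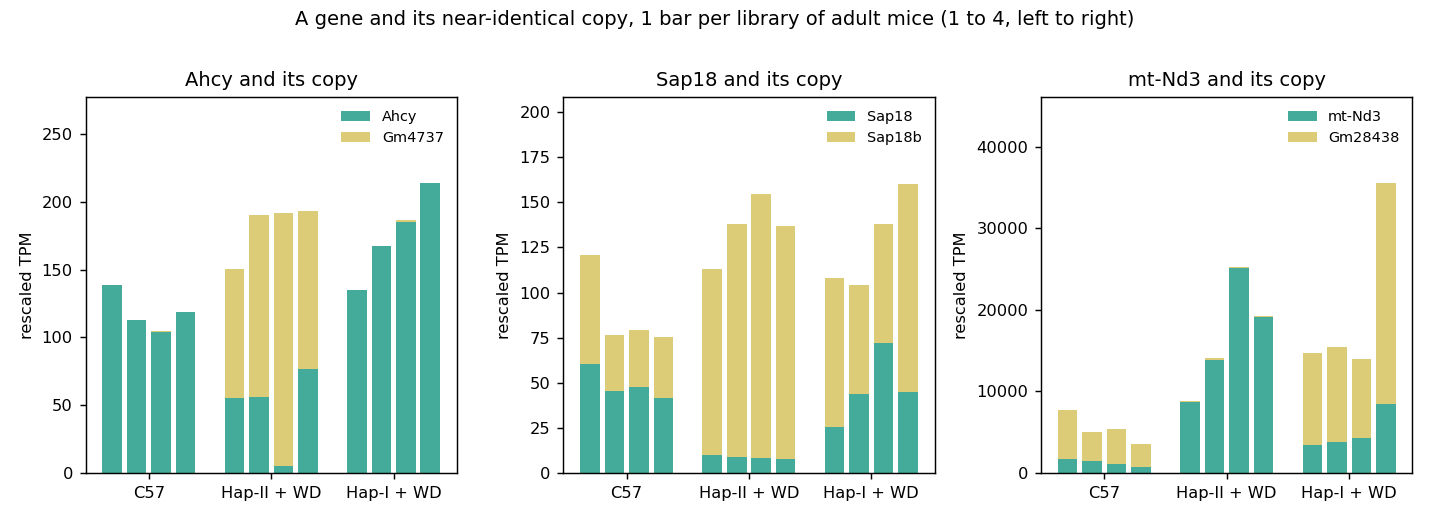
Rescaled TPM of Ahcy, Sap18 and mt-Nd3 stacked with their near-identical copies, with 1 bar per library of adult mice (C57, Hap-II on western diet, Hap-I on western diet). The copy Gm4737 takes up 72.8% of the pair on average in Hap-II and 0.0295% in C57, while the summed height of that pair is 181 TPM in Hap-II and 176 TPM in Hap-I.

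Tyrobp, Gspt1 and Pcna-ps2 complete the genes that the naming rule took from the test against Hap-I adults. Tyrobp and Gspt1 have no near-identical copy, yet neither was called against Hap-I in the fit with copies summed. Tyrobp was at 1.37, 0, 0.000198 and 0 TPM in Hap-II, at 10.01, 9.96, 4.01 and 5.35 TPM in C57 and at 16.01 ± 8.66 TPM in Hap-I adults (Hap-II minus Hap-I -3.62, adjusted p = 0.0261), while C1qa, another macrophage gene, ranged from 21.2 to 29.3 TPM in Hap-II and from 13.99 to 36.6 TPM in C57. Gspt1, a translation termination factor, was at 22.5 to 25.4 TPM against 32.3 to 35.7 TPM in C57 (log2 change -0.51 ± 0.16, adjusted p = 0.0311), and was lower than in Hap-I by a log2 difference of -0.98 (adjusted p = 0.0201). Pcna-ps2, a pseudogene of the replication clamp, was at 1.302, 3.46, 4.96 and 2.20 TPM against at most 0.0867 TPM, and its sum with Pcna had a change of 0.19 (adjusted p = 0.399). Named after their values were seen, Gm10052 and Gm8203, both copies of expressed genes, were listed at 0 in all Hap-I adults, and their changes from C57 in Hap-II were 0.09 and -0.27 (adjusted p = 0.921 and 0.561).

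Of 181 genes named by rule, 158 were called by limma, 141 of these with transcript length adjusted, and 84 whichever single library was left out. Leaving out Hap-II libraries 3 and 4, 20 of the 158 kept their calls. Apart from the panel, the rule took only called genes, mostly with large changes, so the 158 was largely set by the rule. Over all genes, 2159 of the 2923 calls (73.9%) were kept with length adjusted, and 147 genes were called without Hap-II libraries 3 and 4. Fn1 and Col6a3 were past the threshold in every setting tried. Gm28438, Gm4737, mt-Nd3, Pcna-ps2 and Sap18 were so in each setting that gave a value for the gene by itself. Summed with its copy, Pcna-ps2 missed the threshold (limma adjusted p = 0.399), Sap18 changed by 0.64 and the pair of mt-Nd3 and Gm28438 by 1.59, where Sap18 and Gm28438 by themselves were lower.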

How the data were processed

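RNA from kidney was extracted with Qiagen RNeasy kits and made into stranded, poly(A)-selected TruSeq libraries, per the labels' protocols. The deposited table holds TPM made by the authors for 30153 Ensembl gene identifiers, and the submitters' processing notes list kallisto and the GRCm38 build. Their versions and the annotation release were not given in the sources used here. Columns were matched to samples by title code, and 29811 identifiers were named from GENCODE M21, which gave coordinates on GRCm38. The 342 others kept their identifiers. The deposited values of the 16 kidney libraries summed to between 911725 and 944019. The 8 Hap-I libraries without the diet held brain transcripts and stayed out of the fit.

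Genes with at least 1 TPM in at least 4 of the 16 libraries were kept. limma 3.58.1 in R 4.3.3 (lmFit and eBayes with a mean-variance trend) was fitted to log2(rescaled TPM + 1) with 4 group means, and the threshold was an adjusted p of 0.05. Checks on simulated data used the same script. Library values were compared by two-sided exact permutation tests. Library-wise loess on log2 transcript length gave the length adjustment, and copies are genes that share at least 50 percent of 31-base words. Named genes were the 12 largest changes in each direction without overlap and at 5 TPM or more, up to 4 called members of each list, a panel of 43 genes of which 39 were tested, and up to 6 genes by the test against Hap-I adults. Some genes that this rule took are not reported here. Others were named after their values were seen. The comparison, the lists and the rule were chosen with earlier results of these data known. Nothing says how animals were housed or processed together, so the p-values measure the spread between these libraries only. TPM keep no depth, so no counting intervals are given.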

Additional observations from a re-analysis of the deposited data

Results flagged for a closer look

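In groups of 4 libraries, the highest or lowest value was set apart where its gap to the next, as a share of the group's range, passed Dixon's critical value, a rule by which chance sets apart about 1 in 20 groups. Of 368 groups of values tested, 29 met it. C57 library 1 held most of them. It was also the C57 library whose expression, relative to each gene's mean over the 16 kidney libraries, did not climb with transcript length. Its slope was -0.0898, against 0.193 for the nearest C57 library. In it Cox7c stood at 786 TPM, Ndufb9 at 804, Cox4i1 at 1907, Rps24 at 1169, Gpx1 at 2310 and Gpx4 at 1393 TPM, each above the other C57 libraries and so nearer to Hap-II. Urothelial genes were high there as well, with Krt5 at 15.8, Upk1a at 23.4 and Krt15 at 11.9 TPM. Slc22a7 at 242, C2 at 37.3, Neu1 at 136 and Agt at 36.1 TPM were the highest of their group, while Trpv5 at 2.97, Fgfr1 at 13.2, Nox4 at 72.4 and Kl at 65.7 TPM were the lowest. What sets this library apart was not tested.

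Other libraries stood apart in single genes. Hap-II library 1 had Tyrobp at 1.37 TPM and Trp53 at 12.5 TPM, above the other Hap-II libraries. Hap-II library 2 had Mup18 at 0.824, Krt18 at 27.9 and Upk1b at 1.98 TPM. Hap-II library 3 was the highest of its group for Havcr1, at 2.83 TPM, and the lowest for the clock gene Arntl, at 0.356 TPM against 2.17 TPM in the nearest. C57 library 2 had Pcna-ps2 at 0.0867 TPM, and C57 library 3 had Gm4737 at 0.123 TPM. C57 library 4 was lowest for Agtr1a, at 11.9 TPM, and for Arntl, at 0.296 TPM.

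The change from C57 differed between the Hap-II and Hap-I adults on the western diet in 9 genes by limma's test of the difference. The log2 difference, Hap-II minus Hap-I, was 6.68 for Gm4737, 4.74 for Gm8203, 4.06 for Gm10052, 3.34 for Tusc3 and 1.88 for Pcna-ps2. It was -6.44 for Gm28438, -3.62 for Tyrobp, -2.20 for Sap18 and -0.98 for Gspt1.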

How the results depend on the processing

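The count of 2923 genes between Hap-II and C57 became 5127 with TPM as deposited, 5919 with array weights, 1217 with the Y-linked mean as a covariate, 147 without Hap-II libraries 3 and 4, and 29 with the adipocyte mean as a covariate, the last pair chosen after seeing the data, as were the adjustments for length and GC and the summing of copies. It ranged from 972 to 3689 with 1 Hap-II or C57 library left out, and was 972 without Hap-II library 3, 1647 without C57 library 2, 1495 without C57 library 3 and 1369 without C57 library 4. For Hap-I adults against C57 the count of 4108 became 8009 with TPM as deposited, 8506 with array weights, 915 with the Y-linked covariate and 10 with the adipocyte covariate, and ranged from 2594, without C57 library 4, to 4308, with 1 Hap-II or C57 library left out. The 9 genes that differed between Hap-II and Hap-I became 15 with array weights and 1 with copies summed, and 7 to 12 with 1 Hap-II or C57 library left out. No Hap-I library was left out in turn. The other settings (pseudocount, filters, quantile scaling, mitochondrial genes removed, 8 libraries only, brain-enriched genes left out, length and GC) kept the total of 2923 within 1.5 times. The split by direction was not kept with mitochondrial genes removed, where 471 were higher and 3148 lower, against 1618 and 1305. Values turned negative for Vnn1 (-0.14), Nr1h3 (-0.0234), Kmo (-0.11), Cxcl16 (-0.0722), Nr1d2 (-0.0512) and Sod2 (-0.27) with TPM as deposited, for Vnn1 (-0.0025) and Sod2 (-0.14) with mitochondrial genes removed, and for Prdx1 (-0.0139) with quantile scaling. They turned positive for Thrsp (0.34), Adipoq (0.38) and Retn (0.16) with the adipocyte covariate, which itself contains Adipoq and Retn. The causes were not tested. The mitochondrial share differed by 8.08 to 10.3 points with 1 library left out. No paired analysis was possible because the C57 titles share no number with the Hap-II titles. Depth is unknown in TPM, so the limit of detection of low genes is unknown too.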
